A study of Mus musculus with 12 samples.

Results

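T cell receptor gene segments were the rows of the expression table whose symbol began with Tra, Trb, Trd or Trg followed by the letter of a segment class, v, d, j or c, which gave 94 of 13283 genes. They comprised 50 Trav and 1 Trac, 19 Trbv, 2 Trbd, 14 Trbj and 2 Trbc, 1 Trdc, and 3 Trgc, 1 Trgj and 1 Trgv segment. The rule used names alone and no expression value. Expression was measured by RNA sequencing in mouse cytotoxic T lymphocytes (CTL), CD8+ effector T cells grown in culture, in 4 groups of 3 libraries, 12 in all. The WT group came from GzmB cre+ mice, which carry a Cre recombinase driven by the granzyme B promoter, and the FOXO1-GFP KO group from FOXO1-GFPfl/fl GzmB cre+ mice, in which the same Cre deletes a floxed allele of the transcription factor FOXO1 fused to GFP. Each genotype was kept in vehicle or was given 10 µM IC87114, which blocks the PI3K isoform p110δ, for 24 h (WT+PI3Kdi and FOXO1-GFP KO+PI3Kdi). Donors were female mice of 11 to 27 weeks, and lymph nodes or spleens were used. All cells were activated for 48 h through CD3 and CD28 and then expanded in cytokine (20 ng/mL of IL-2 with IL-12 at 2 ng/mL), and viable CD8+ cells were sorted, the FOXO1-GFP KO cells also as GFP-. The deletion is thus one made in activated T cells, and the sort kept cells that had lost GFP.

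The T cell receptor is a heterodimer, of an α and a β chain in conventional CD8+ T cells and of a γ and a δ chain in a smaller lineage. In developing T cells the RAG recombinase joins 1 of many V segments, for β and δ a D segment, and a J segment, and splicing then connects the joined VJ or VDJ exon to a constant (C) region exon. V segments encode most of the antigen-binding face, D and J segments complete its most variable loop, and the constant region carries the membrane anchor that associates with the CD3 chains. A polyclonal culture holds many rearrangements side by side, so that the level of a V segment in bulk RNA depends on how many cells use it as well as on the RNA per cell, which cannot be told apart here. The γ loci are transcribed in αβ T cells too, and their germline or out-of-frame transcripts make no receptor.

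Reads were 75 bases long, and the β diversity and joining segments are shorter than 1 read. Both D segments are shown because this length bears on how their FPKM can be read. Trbd1 (GRCm38, chr6:41533201-41533212, + strand) is 12 bases long and Trbd2 (chr6:41542163-41542176, + strand) 14. Trgj1 (chr13:19210343-19210402, + strand), Trbj1-7 (chr6:41535642-41535687, + strand) and Trbj2-5 (chr6:41543453-41543501, + strand) are the J segments whose values changed with PI3Kdi in a genotype, as described further on.
Trbd1: gggacagggggc
Trbd2: gggactgggggggc
Trgj1: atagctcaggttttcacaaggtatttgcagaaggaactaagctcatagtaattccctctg
Trbj1-7: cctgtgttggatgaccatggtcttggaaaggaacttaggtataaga
Trbj2-5: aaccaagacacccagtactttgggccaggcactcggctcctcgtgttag
Both D segments are runs of G broken by a few other bases. FPKM divides by summed exon length, so in segments of 12 to 60 bases a small number of reads gives a large value: Trbd1 had 40 to 189 estimated reads per library for a mean of 369 FPKM, whereas Trbv16, with 398 bases of exon, had 239 to 1185 reads for a mean of 63.2 FPKM. The FPKM of D and J segments cannot be read against those of longer segments.

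Several members are near-copies of one another, and the authors counted reads that mapped to 1 place. The first coding exons of Trbc1 and Trbc2 have 375 bases each and differ at 1 of them, a change written C260A from Trbc1 to Trbc2 with positions counted from the first base of the exon. A stretch of 80 bases of that exon is shown, at chr6:41538438-41538517 in Trbc1 and chr6:41546950-41547029 in Trbc2 (+ strand), with the differing base in capitals.
Trbc1: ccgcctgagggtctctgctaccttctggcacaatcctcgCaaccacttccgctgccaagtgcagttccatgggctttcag
Trbc2: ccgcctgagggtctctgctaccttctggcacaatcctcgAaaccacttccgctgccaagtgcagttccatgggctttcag
Of the 75-base windows of their transcripts, 34.6% in Trbc1 and 37.7% in Trbc2 occurred in the other gene. In the γ chain, 17.6% of the windows in Trgc1 and 9.2% in Trgc2 also occurred in another γ constant region. Trgc4 shared none, and the 19 Trbv segments shared none with any annotated transcript.

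Shared sequence was also more extensive in the α variable segments without a row than in those with one. GENCODE annotates 108 functional Trav segments on GRCm38, of which 50 had a row. The median share of 75-base windows found in another gene was 19.8% among these 50 and 100% among the 58 that were not in the table, and 37 of the latter shared every window. All 14 Trbj and both Trbd segments of the annotation had a row, as did 19 of 22 functional Trbv. Of the 3 other functional Trbv, Trbv21 shares none of its windows, while Trbv4 and Trbv5 share 69.9% and 75.5% of their windows with a read-through gene of the same locus, 5830405F06Rik, which had a row at 0.10 to 0.45 FPKM. None of 51 functional Traj and none of 5 functional Trdv segments had a row, so that neither J usage of the α chain nor V usage of the δ chain could be described.

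Estimated depth was 12.9 to 48.0 M reads per library, and the shallowest was FOXO1-GFP KO replicate 3. Foxo1, the targeted gene, was at 5.77 to 10.46 FPKM in the 6 WT libraries with and without PI3Kdi and at 0.58 to 1.75 in the 6 FOXO1-GFP KO libraries (log2 fold change -2.71 and, with PI3Kdi, -2.76). Cd8a and Cd8b1, which encode the CD8 co-receptor, were at 139 to 253 and 224 to 399 FPKM, and Cd4 at 0.09 to 0.95. In WT, 2 markers of other cells rose with PI3Kdi in the fit with the replicate number as a block, described further on: Cd4, at 0.44 to 0.57 FPKM with vehicle and 0.83 to 0.95 with PI3Kdi (log2 fold change 0.68, limma adjusted p = 0.0413), and Igkc, at 0.30 to 1.68 and 1.38 to 2.84 FPKM (1.35, adjusted p = 0.0294). Without the block neither was called (adjusted p = 1 and 0.837), and their part in the segment values of that comparison was not tested. Of the lists for other cells, 5 of 11 B cell markers, 3 of 4 CD4 T cell markers, 1 of 6 innate-like T and NK cell markers and 1 of 4 myeloid markers had a row, and Cd79a, Foxp3 and Csf1r had none. The remaining B cell and CD4 T cell markers were not called with PI3Kdi in WT, and their directions were mixed. Ighm, with a log2 fold change of 0.51, passed the adjusted p (0.0191 in limma with the block) but not the fold threshold. Log2 fold changes of the others were 0.02 in Cd79b, -0.48 in Cd74, -0.42 in H2-Ab1, -0.05 in Cd40lg and -0.09 in Zbtb7b. The 5 B cell markers summed to 19.3 to 25.8 FPKM in WT libraries and to 8.51 to 11.7 in FOXO1-GFP KO libraries. Ighm alone was at 7.61 to 12.98 and 1.64 to 3.71 FPKM. Between genotypes with PI3Kdi, Ighm and Igkc were called lower (log2 fold change -2.38 and -4.43, limma adjusted p = 0.000831 and 0.00249 without the block). Cd74, Cd79b and H2-Ab1 were not called (0.47, -0.28 and -0.63). Without PI3Kdi only Ighm was called (-1.60, adjusted p = 0.0153).

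The αβ constant regions were far above the δ constant region. Trbc2 was at 539 to 1270 FPKM and Trbc1 at 297 to 686, and Trac at 291 to 416. The ratio of Trbc2 to Trbc1 was steady, between 1.75 and 1.99 in the 12 libraries. Trdc, the only δ constant region, was at 0.70 to 1.42 FPKM, from 57 to 160 estimated reads spread over 3865 bases of exon, and the 4 groups overlapped. Trgc2 was at 81.4 to 238 FPKM, Trgc1 at 13.2 to 68.9 and Trgc4 at 5.37 to 13.1, so γ constant RNA was far above δ constant RNA per length in each library. An antisense gene and Trdv5 overlap Trdc in the annotation, and the strand setting of the count was not given in the sources used here.

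The β variable segments were broadly and evenly expressed. Trbv16 had the highest mean over the 12 libraries (63.2 FPKM, with 75.7 at the highest), followed by Trbv1 (62.7), Trbv13-2 (61.8), Trbv3 (59.9) and Trbv13-1 (58.7). The ranges of these 5 overlapped, and which segment was highest changed between libraries. Levels then declined to Trbv26 at a mean of 10.1 FPKM. Trbv23 and Trbv30 stood apart at means of 1.96 and 1.48 FPKM. The highest share of a library's summed Trbv signal held by 1 segment was 10.1%, and 17 of 19 exceeded 1% in each library. The inverse Simpson number, the count of equally used segments that would give the same evenness, was 14.5 ± 0.0875 in WT and 14.7 ± 0.139 in WT+PI3Kdi. For FOXO1-GFP KO it was 14.3 ± 0.131, and 14.4 ± 0.184 when PI3Kdi was added (mean ± SD, n = 3 each). Trbv31, which lies beyond Trbc2 on the opposite strand (chr6:41557691-41558452) and joins by inversion, had a mean of 13.5 FPKM.

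**Figure D1:**
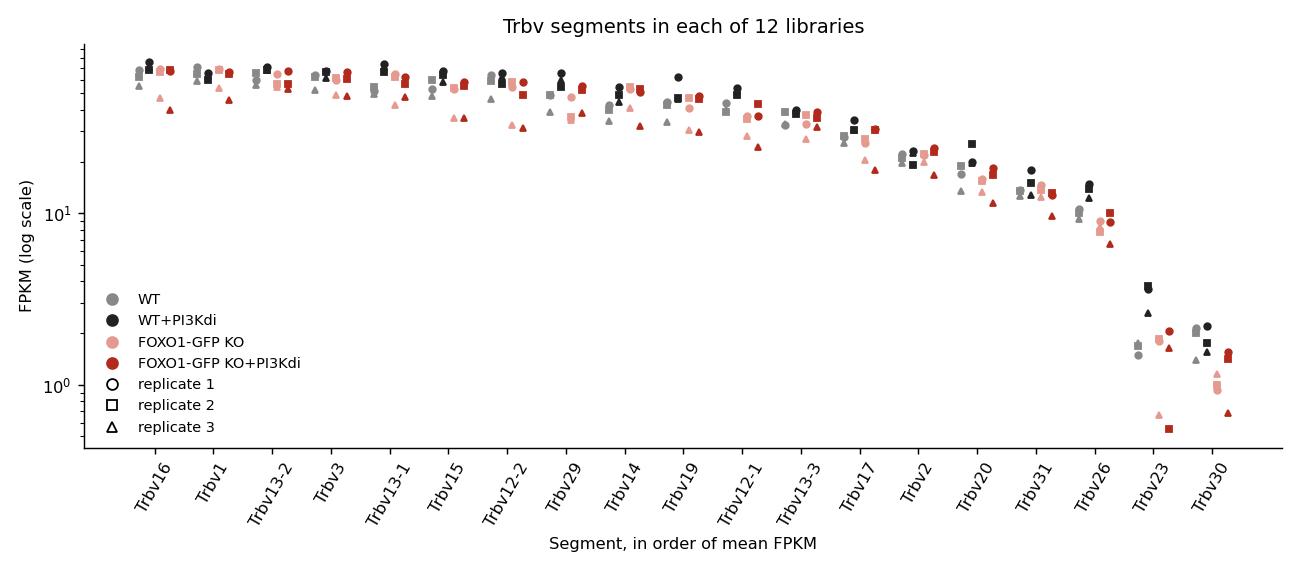
FPKM (log scale) of the 19 Trbv segments, ordered by their mean, in each of the 12 libraries, with colour for the group and marker shape for the replicate number. The WT+PI3Kdi points all lie above the WT points in many segments, among them Trbv14, Trbv26 and Trbv29, and overlap them in others. Trbv23 and Trbv30 lie below the other 17.

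The joining segments of the second β cluster had more reads than those of the first. Whether the reads came from rearranged receptor transcripts was not tested. Reads over the 7 Trbj2 segments were 57.9 to 70.1% of all Trbj reads (median of the 12 libraries 61.6%). Trbj2-1 (mean 50.5 FPKM), Trbj2-7 (49.0) and Trbj2-6 (41.5) were the 3 highest, and Trbj2-6 is annotated as a pseudogene. The other Trbj2 segments had means of 26.7 FPKM (Trbj2-3), 17.7 (Trbj2-2), 13.98 (Trbj2-4) and 12.6 (Trbj2-5). In the first cluster the means were 22 FPKM for Trbj1-3, 20.2 for both Trbj1-6 and Trbj1-5, 19.03 for Trbj1-2, 16.6 for Trbj1-1, 15.2 for Trbj1-4 and 10.9 for Trbj1-7, and their ranges overlapped. These levels rest on few reads, with medians of 11.5 to 60.5 per segment and library. Trbd1 and Trbd2 were at similar values, with means of 369 and 359 FPKM, over nearly the same length.

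The α variable segments were lower per segment and more numerous. Trav16n had the highest mean (10.8 FPKM, 6.01 to 14.4), then Trav16 (8.03), Trav13-1 (6.4), Trav3-3 (5.81) and Trav12-2 (5.54), and the lowest was Trav3-4 at 0.72. Their ranges overlapped from each to the next. Trav1, the most distant from Trac of the measured segments, was at 0.58 to 2.30 FPKM. The median Trav had 17.5 reads in the median library. The inverse Simpson number of Trav was 31.4 ± 0.203 in WT and 32.9 ± 1.47 in WT+PI3Kdi, while for FOXO1-GFP KO it was 30.5 ± 0.844, and 31.3 ± 1.05 when PI3Kdi was added (mean ± SD, n = 3). These describe the 50 segments with a row and not the whole locus.

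Constant and variable regions of the same chain did not move together between replicates. Summed Trbc was 836, 1314 and 1495 FPKM in WT replicates 1, 2 and 3 and 1012, 1626 and 1708 in the paired WT+PI3Kdi libraries. Summed Trbv was 738, 733 and 630 FPKM in the same WT libraries and 879, 796 and 798 with PI3Kdi. The ratio of Trbv to Trbc was therefore 0.882, 0.558 and 0.422 in WT and 0.869, 0.490 and 0.467 in WT+PI3Kdi, so that WT replicate 1 was highest in both. In FOXO1-GFP KO the ratios were 0.637, 0.727 and 0.325, and with PI3Kdi 0.535, 0.539 and 0.268, with replicate 3 lowest in both. The ratio of summed Trav to Trac had the same replicates at its extremes, 0.587 in WT replicate 1 and 0.231 in FOXO1-GFP KO+PI3Kdi replicate 3. 

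**Figure D2:**
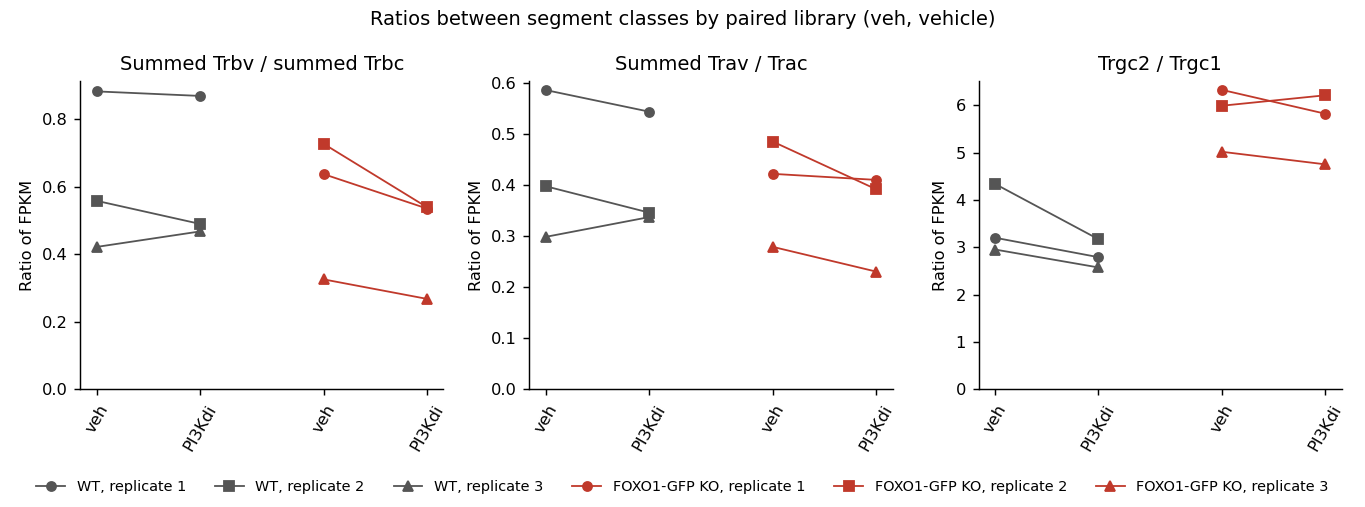
Ratio of FPKM for summed Trbv to summed Trbc, for summed Trav to Trac and for Trgc2 to Trgc1, with lines joining the vehicle (veh) and PI3Kdi libraries of the same replicate number. The first ratio runs from 0.268 to 0.882 with wide spread within each group, and the ratio of Trgc2 to Trgc1 is higher in each FOXO1-GFP KO library than in any WT library.

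The first comparison asked what PI3K p110δ inhibition did to the segments in WT CTL. Without pairing of the libraries, limma called 0 of 94 segments at an adjusted p under 0.05 and a fold change over 1.5, where 0.0979% of all genes were called. An unadjusted p under 0.05 was reached by 11 segments (11.7%), against 5.14% of all genes. Vehicle and PI3Kdi libraries with the same replicate number deviated together (Pearson r of their deviations from the group mean 0.464 to 0.750 over all genes, within each genotype), and with the replicate number as a block within genotype 5 of 94 segments (5.32%) were called, against 2.57% of all genes. Trgc1, Trgc4 and Trgj1 rose, and Trav7-6 and Trav7d-4 fell. In FOXO1-GFP KO CTL the unpaired fit called 0 of 94 against 0.0452% of all genes, with 7 segments (7.45%) at an unadjusted p under 0.05 against 5.17% of all genes, and the blocked fit called 8 (8.51%) against 2.79%. These were all 5 γ chain segments, which rose, and Trav6-1, Trbj1-7 and Trbj2-5, which fell. Apart from the γ chain, 2 of 89 segments in WT and 3 of 89 in FOXO1-GFP KO were called with the block, or 2.25% and 3.37%.

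**Figure D3:**
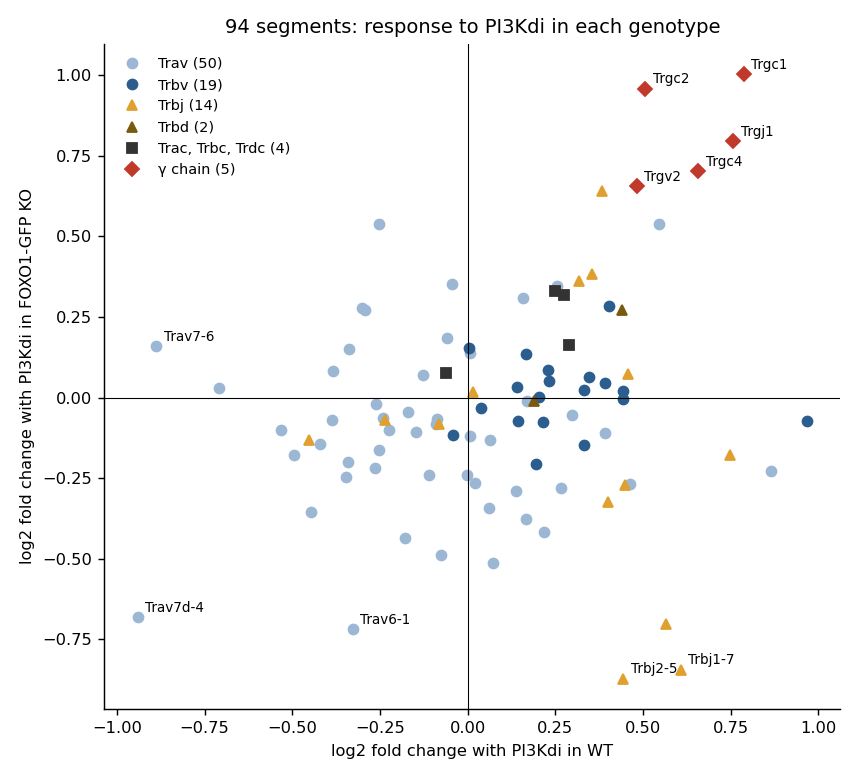
Log2 fold change with PI3Kdi in WT (x axis) against that in FOXO1-GFP KO (y axis) for each of the 94 segments, coloured by class, with names for segments called with the replicate block in either genotype. The 5 γ chain segments are at the upper right, between 0.48 and 0.79 in WT and between 0.66 and 1.0 in FOXO1-GFP KO.

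The γ chain segments belong to neighbouring clusters of chromosome 13. Trgj1 lies before Trgc1 (chr13:19214103-19217024) on the + strand, and Trgv2 (chr13:19336573-19337167) before Trgc2 (chr13:19304649-19307551) on the - strand, while Trgc4 lies at chr13:19344558-19352756. Trgc1 was at 25.4, 24.7 and 42.5 FPKM in WT replicates 1 to 3 and at 42.1, 47.4 and 68.9 in WT+PI3Kdi. It was at 13.2, 17.4 and 26.3 FPKM in FOXO1-GFP KO and at 29.3, 33.2 and 50.2 with PI3Kdi. Each PI3Kdi library was above its partner; the WT groups overlapped and the FOXO1-GFP KO groups did not. Its log2 fold change in WT was 0.79 (SE 0.12 with the block, adjusted p = 0.00211 with the block and 0.751 without) and 1.0 in FOXO1-GFP KO (SE 0.12, adjusted p = 0.000822 and 0.627).

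Trgc2 was at 81.4, 107 and 125 FPKM in WT and at 117, 150 and 177 in WT+PI3Kdi. The FOXO1-GFP KO libraries were at 83.3, 104 and 132 FPKM and with PI3Kdi at 171, 206 and 238. The FOXO1-GFP KO groups did not overlap, and in both genotypes every library was above its partner. Its log2 fold change in WT was 0.51, with a blocked adjusted p of 0.00424 in limma but a size under the fold threshold, and 0.96 in FOXO1-GFP KO (blocked adjusted p = 0.000161, unblocked 0.320). The difference between these responses was 0.45 on the log2 scale (95% interval with the block 0.19 to 0.71, limma adjusted p = 0.171), which missed the threshold.

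Trgj1, the joining segment of the Trgc1 cluster, was at 15.3, 10.8 and 18.6 FPKM in WT and at 25.4, 20.8 and 28.1 in WT+PI3Kdi. It was at 8.88, 7.63 and 5.18 FPKM in FOXO1-GFP KO and at 11.97, 15.01 and 10.4 with PI3Kdi. The vehicle and PI3Kdi libraries did not overlap in either genotype, though the segment had only 4 to 31 reads. Its log2 fold changes in the WT and FOXO1-GFP KO pairs were 0.76 and 0.79 (limma with the block, adjusted p = 0.00289 and 0.00255; without it 0.491 and 0.627).

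Trgc4 was at 5.37, 5.62 and 8.02 FPKM in WT and at 10.8, 8.33 and 10.7 in the PI3Kdi partners, and the FOXO1-GFP KO libraries were at 6.76, 6.48 and 7.81 and with PI3Kdi at 10.48, 10.9 and 13.1. Neither genotype's groups overlapped. Its log2 fold changes were 0.66 and 0.70 (limma with the block, adjusted p = 0.00173 and 0.00166; without it 0.280 and 0.390). Without WT replicate 1 and its PI3Kdi partner, Trgc4 was no longer called in WT. Trgv2, the variable segment of the Trgc2 cluster, was at 49.6, 39 and 35.1 FPKM in WT and 66.9, 49.7 and 55.8 with PI3Kdi, and at 39.3, 50.8 and 28.3 in FOXO1-GFP KO and 63.2, 79.2 and 44.4 with PI3Kdi. Again each PI3Kdi library exceeded its partner, and the FOXO1-GFP KO groups overlapped while the WT groups did not. The log2 fold changes were 0.48 in WT, under the fold threshold, and 0.66 in FOXO1-GFP KO (limma with the block, adjusted p = 0.0127 and 0.00247; without it 1 and 0.821).

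**Figure D4:**
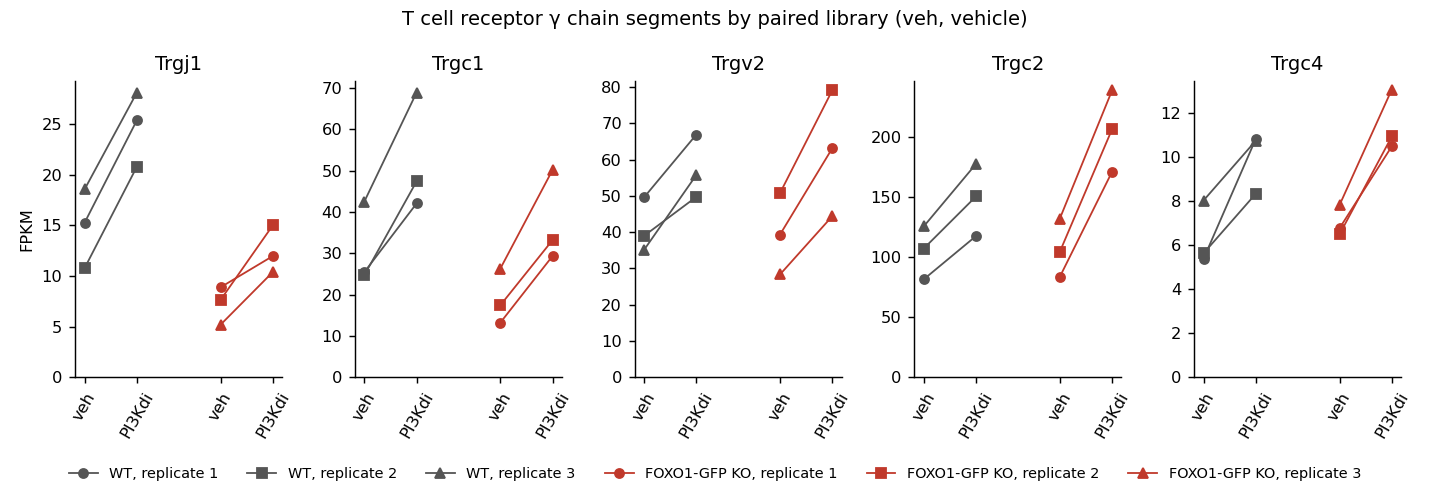
FPKM of the 5 γ chain segments, with lines joining the vehicle (veh) and PI3Kdi libraries of the same replicate number in WT and in FOXO1-GFP KO. All lines slope upwards, and the FOXO1-GFP KO lines of Trgj1 lie below the WT lines of the same treatment.

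All 5 γ chain segments were higher with PI3Kdi in 6 of 6 pairs. Over all members 11 of 94 (11.7%) had that pattern, near the 9.2% of all genes, and the other 6 were Trbc1, Trbc2, Trbd1, Trbj2-1, Trbv29 and Trav8d-2. Trdc, whose locus pairs with γ in γδ T cells, had log2 fold changes of 0.29 and 0.16 in the WT and FOXO1-GFP KO pairs (limma with the block, adjusted p = 0.251 and 0.463). Klrb1c, the only innate-like T and NK cell marker with a row, was at 1.94 to 2.67 FPKM in WT and 2.11 to 2.64 with PI3Kdi, and in the FOXO1-GFP KO libraries at 2.47 to 3.72 and 3.31 to 4.81. Sox13, Il17a, Zbtb16 and Ncr1 had no row, and whether such cells take part in the γ values was not tested.

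The αβ constant regions showed small differences with PI3Kdi. Trbc1 and Trbc2 had log2 fold changes of 0.27 and 0.25 in WT and 0.32 and 0.33 in FOXO1-GFP KO, and neither passed (limma with the block, adjusted p = 0.135, 0.218, 0.0744 and 0.0899). Trac had -0.06 (95% interval with the block -0.22 to 0.10) and 0.08 (-0.08 to 0.23). Its sign changed when single libraries were left out.

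Among variable segments, Trav7-6 was at 1.98, 1.69 and 1.98 FPKM in WT and 1.10, 0.69 and 1.19 in WT+PI3Kdi, a log2 fold change of -0.89 (limma with the block, adjusted p = 0.0235; without it 0.526). Trav7d-4 was at 1.24, 0.74 and 0.64 FPKM against 0.47, 0.29 and 0.43 (log2 fold change -0.94, adjusted p = 0.0180 with the block in limma; 0.841 without). They had at most 31 and 18 reads in a library and share 29.0% and 63.4% of their windows with other genes. With the block, Trav7-6 lost its call without any 1 of the WT replicates, and Trav7d-4 without WT replicate 1 or 2. In FOXO1-GFP KO, Trav6-1 was at 2.36, 1.54 and 1.15 FPKM and with PI3Kdi at 1.26, 0.98 and 0.67 (log2 fold change -0.72, limma with the block adjusted p = 0.0486; without it 0.933). Trav6-1 lost its call without WT replicate 1 or 3 or any 1 of the FOXO1-GFP KO replicates. Among variable segments that were not called, log2 fold changes with PI3Kdi in WT included 0.97 in Trbv23, 0.87 in Trav5-1 and -0.71 in Trav12-1. Trbv23 was at 1.49, 1.68 and 1.76 FPKM in WT and 3.63, 3.78 and 2.62 with PI3Kdi.

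Several β chain classes had positive median log2 fold changes with PI3Kdi in WT, 0.39 over the 14 Trbj (11 positive) and 0.31 over the 2 Trbd, and Trbv was among them. Of 19 Trbv, 18 had a positive log2 fold change (median 0.23, against -0.04 over all genes), none was called, and in 10 the WT+PI3Kdi libraries were all above the WT libraries. Over all 94 members that non-overlap held for 19 (20.2%), against 4.43% of all genes, and in 3 (3.19%, against 5.81%) the WT+PI3Kdi libraries were all lower. In FOXO1-GFP KO, 4 members, all of the γ chain, had each PI3Kdi library above each vehicle library (4.26%, against 5.28%), and 2, Trbj1-7 and Trbj2-5, had each below (2.13%, against 4.8%). There the Trbv median was 0.02 with 11 positive, and it was between -0.09 and 0.18 when single libraries were left out. The Trav medians were -0.12 and -0.11 in the WT and FOXO1-GFP KO pairs, against -0.04 and -0.02 over all genes. Leaving out WT replicate 1 gave -0.0085 in WT, and leaving out FOXO1-GFP KO+PI3Kdi replicate 3 turned the FOXO1-GFP KO median to 0.07 with 32 of 50 positive.

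In the joining segments Trbj2-5 and Trbj1-7 the pairs of the genotypes moved in opposite directions, although the test of that difference was not passed. Trbj2-5 was at 14.6, 9.35 and 10.3 FPKM in WT and 18.2, 14.7 and 13.2 in WT+PI3Kdi, but at 15.4, 13.7 and 15.9 in FOXO1-GFP KO and 11.99, 4.84 and 9.25 with PI3Kdi. It was higher in each WT pair and lower in each FOXO1-GFP KO pair. The log2 fold changes were 0.44 and -0.87 (limma with the block, adjusted p = 0.131 and 0.00959), and their difference was -1.32 (adjusted p = 0.0851 with the block and 1 without). Trbj1-7 was at 11.3, 10.9 and 6.24 FPKM in WT and 12.6, 17.1 and 12.7 with PI3Kdi, and at 16.4, 11.3 and 10.1 in FOXO1-GFP KO and 9.23, 9.28 and 3.70 with PI3Kdi. Its log2 fold changes were 0.61 and -0.84 (adjusted p = 0.0932 and 0.0253 in limma with the block), and their difference was -1.45 (adjusted p = 0.0915 with the block and 1 without). The 2 segments had 5 to 22 and 3 to 24 reads per library. The call in FOXO1-GFP KO was lost for Trbj2-5 without FOXO1-GFP KO replicate 2 or 3 and for Trbj1-7 without replicate 1 or 3. Members whose pairs all moved one way in one genotype and the other way in the other numbered 7 of 94, 7.45% against 3.03% of all genes. The largest positive difference of responses was 1.05 in Trav7-6. Among segments with a mean of at least 1 FPKM in a group, Trav12-1 followed with 0.74. No segment passed the test of the difference between responses, which called 0% of all genes without the block and 0.0226% with it; 4 segments (4.26%) had an unadjusted p under 0.05 without the block and 22 (23.4%) with it, against 1.51% and 10.8% of all genes.

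The second comparison asked how loss of FOXO1 affected the segments. Without PI3Kdi, 0 of 94 were called by limma with or without the block, against 0.331% and 0.233% of all genes, and 5 and 3 segments (5.32% and 3.19%) had an unadjusted p under 0.05, against 6.51% and 5.09%. With PI3Kdi in both genotypes, 1 of 94 was called without the block (1.45% of all genes) and 0 with it (1.18%), with 19 and 12 (20.2% and 12.8%) at an unadjusted p under 0.05 against 10.2% and 9% of all genes. That segment was Trbv26, at 14.7, 13.8 and 12.2 FPKM in WT+PI3Kdi and 8.90, 10.1 and 6.64 in FOXO1-GFP KO+PI3Kdi (log2 fold change -0.68, SE 0.15, limma adjusted p = 0.0474 without the block and 0.187 with it). When single libraries were left out, it was called only without FOXO1-GFP KO+PI3Kdi replicate 2. Without PI3Kdi it was at 10.6, 9.99 and 9.20 FPKM in WT and 8.95, 7.74 and 8.26 in FOXO1-GFP KO, also without overlap. Non-overlapping groups with the FOXO1-GFP KO libraries lower were seen in 6 of 94 members (6.38%) without PI3Kdi and in 15 (16.0%) with it, against 6.79% and 7.9% of all genes, and with those libraries higher in 0 members in either comparison, against 3.54% and 6.85%. Rises were ranked among segments with a mean of at least 1 FPKM in either group compared. The 2 largest were 0.55 in Trav19 and 0.43 in Trbj1-7 without PI3Kdi, and 0.60 in Trav7-6 and 0.47 in Trgc2 with it. Trbv23 had a log2 fold change of -1.34 with PI3Kdi and was not called.

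All 19 Trbv had a negative log2 fold change between the genotypes with PI3Kdi, with a median of -0.34 against 0.01 over all genes. Leaving out FOXO1-GFP KO+PI3Kdi replicate 3, where summed Trbv was 523 FPKM against 775 and 736 in replicates 1 and 2, gave a median of -0.16 with 16 of 19 negative. Without PI3Kdi the Trbv median was -0.11 with 15 negative, and without FOXO1-GFP KO replicate 3 it was 0.02 with 7 negative. 

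Among the γ chain segments Trgj1 had the largest genotype difference, with a log2 fold change of -1.03 without PI3Kdi (limma adjusted p = 0.125, with the block 0.180) and -0.99 with it (0.0757, with the block 0.0921), without overlap in either. These missed the threshold, except that Trgj1 was called with PI3Kdi when FOXO1-GFP KO replicate 3 was left out of the unpaired fit. Trgc1, in the same cluster, had log2 fold changes of -0.71 and -0.50 (adjusted p = 0.692 and 0.672 without the block). Trgc2 instead had 0.02 and 0.47 (adjusted p = 1 and 0.493). The ratio of Trgc2 to Trgc1, looked at after these values were seen, was 3.2, 4.34 and 2.95 in WT and 2.79, 3.17 and 2.58 in WT+PI3Kdi, and 6.33, 5.99 and 5.02 in FOXO1-GFP KO and 5.82, 6.21 and 4.75 with PI3Kdi. The genotypes did not overlap on this ratio, which was not tested because it was chosen from the values.

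Some of the largest differences between the genotypes among the α variable segments fell within 1 stretch of the locus. Trav6n-6 and Trav8d-2 had log2 fold changes of -1.33 and -1.21 without PI3Kdi and -1.51 and -1.21 with it (limma adjusted p from 0.269 to 0.855 without the block), and both belong to a group of 6 measured segments within 90.7 kb (chr14:53042428-53133137). In order these are Trav8d-2, Trav16d-dv11, Trav14d-3-dv8, Trav7n-4, Trav10n and Trav6n-6, and the run was picked out after its values were seen. With PI3Kdi the log2 fold change of Trav10n, -0.58, was smaller in size than those of Trav5-1 (-0.88), Trav6-1 (-0.70) and Trav10 (-0.66), which lie outside the run. Their summed FPKM was 16.8, 15.9 and 14.4 in WT and 17.8, 14.5 and 13.5 in WT+PI3Kdi. The FOXO1-GFP KO libraries had 6.92, 13.9 and 4.81, and with PI3Kdi 5.75, 12.9 and 4.16. FOXO1-GFP KO replicate 2 was thus near the WT libraries in both treatments, and replicates 1 and 3 were each low in both. The summed estimated reads behind the FOXO1-GFP KO values were 58, 168 and 23, and with PI3Kdi 64, 99 and 27.

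Library by library, the number of these 6 segments below the lowest of the 6 WT libraries was 5, 1 and 6 in FOXO1-GFP KO replicates 1 to 3 and 6, 1 and 6 with PI3Kdi. Among the other 44 Trav it was 2, 2 and 6, and with PI3Kdi 1, 4 and 14. The median log2 difference of the 6 from the mean of the WT libraries was -0.81, -0.03 and -1.13 in FOXO1-GFP KO and -1.25, -0.17 and -1.65 with PI3Kdi, whereas that of the other 44 was between -0.46 and 0.15 in the same libraries. Without PI3Kdi neither measured neighbour of the run was below the WT libraries: Trav8d-1 was at 1.33, 0.99 and 1.17 FPKM in FOXO1-GFP KO and 0.98 to 1.97 in the 6 WT libraries, and Trav8n-2 at 2.29, 1.57 and 1.71 and 1.29 to 2.11. With PI3Kdi, Trav8d-1 was at 1.63, 0.95 and 0.85 FPKM, so that replicates 2 and 3 were below the 6 WT libraries, and Trav8n-2 was at 2.56, 2.44 and 1.81. Trav8d-2 itself was at 1.77 to 3.27 FPKM in WT libraries, at 0.66, 1.90 and 0.46 in FOXO1-GFP KO and at 1.16, 2.11 and 0.84 with PI3Kdi. The cause was not tested.

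**Figure D5:**
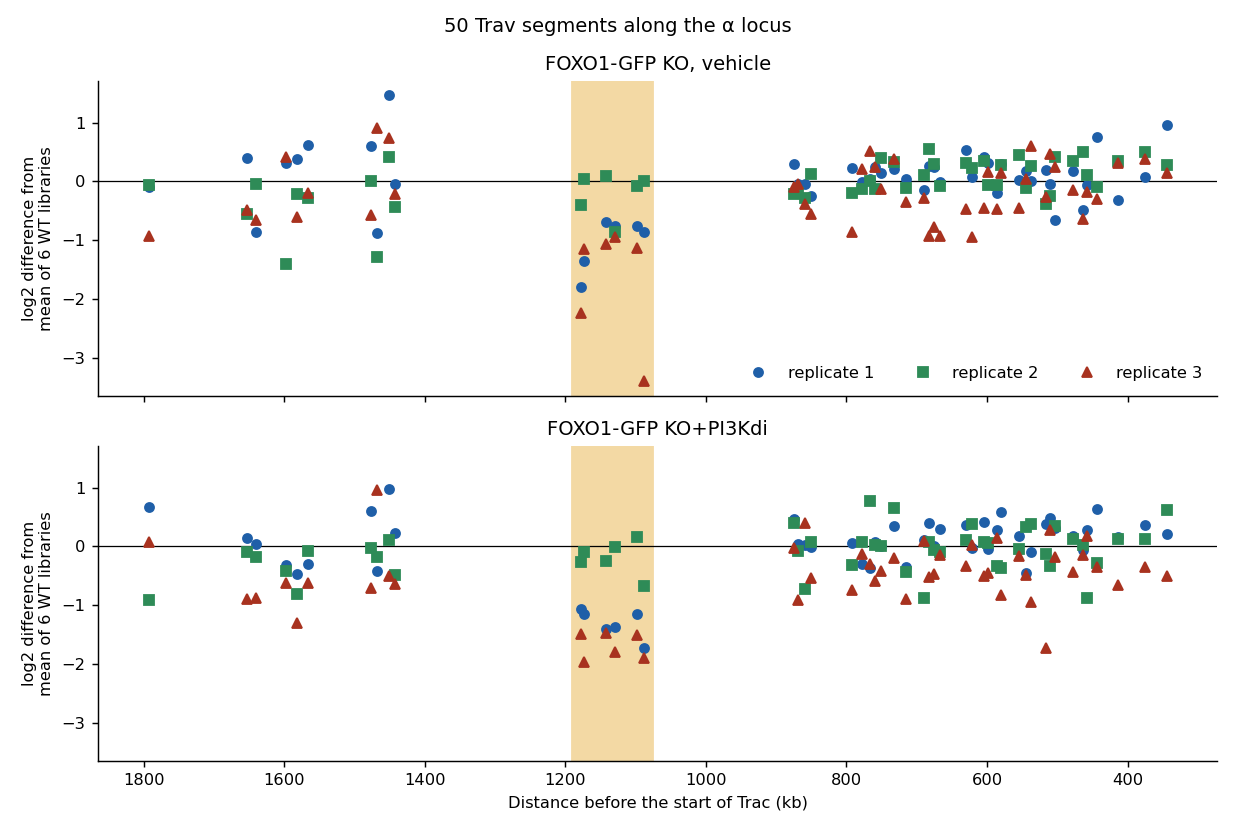
Log2(FPKM + 0.1) of each of the 50 Trav segments minus its mean over the 6 WT libraries, against the distance before the start of Trac (kb), for the FOXO1-GFP KO libraries with vehicle (top) and PI3Kdi (bottom). In the shaded run of 6 segments, replicates 1 and 3 lie below the line in both panels, and replicate 2 lies closer to it except at Trav7n-4 with vehicle, where it is at -0.87 and replicate 1 at -0.76.

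Of the 75-base windows of Trav8d-2, the first member of the run, 7.9% occur in another gene, and of those of Trav8n-2, the nearest measured segment after it, 18.6%. Over the run these shares were 7.9 to 50.5%, within the range of 0 to 86.2% of the 50 Trav.

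Few of the genes that work with the segments were called. None of the 4 chains of the receptor complex, Cd3d, Cd3e, Cd3g and Cd247, was called in any of the 5 contrasts with or without the block. Neither Cd8a nor Cd8b1 was called. With PI3Kdi in FOXO1-GFP KO, most CD3 and CD8 genes passed the adjusted p in limma with the block but not the fold threshold. Log2 fold changes were 0.33 in Cd3d (adjusted p = 0.0242), 0.24 in Cd3e (0.0168) and 0.37 in Cd3g (0.017). Cd8a and Cd8b1 both had 0.37 (0.00796 and 0.00779), while Cd247 had 0.19 (0.0948). In WT, Cd8a had 0.29 (0.0239), and the other CD3 and CD8 genes did not pass. Of 5 kinases and adaptors of receptor signalling (Lck, Zap70, Lat, Lcp2 and Fyn), 1 was called, Lcp2, which encodes the adaptor SLP-76. It was at 87.1, 78.6 and 71.7 FPKM in WT+PI3Kdi and 59.3, 53.5 and 41.0 in FOXO1-GFP KO+PI3Kdi (log2 fold change -0.64, limma adjusted p = 0.0435 with the block and 0.0974 without). Of the 4 recombination and pre-receptor genes only Dntt had a row. Dntt, the terminal transferase that adds bases at V(D)J junctions, was at 2.45, 1.94 and 1.13 FPKM in WT and 0.99, 1.12 and 0.91 with PI3Kdi, and at 1.10, 1.12 and 1.15 in FOXO1-GFP KO and 0.44, 0.79 and 0.69 with PI3Kdi. It fell with PI3Kdi in the blocked fit in both genotypes (log2 fold change -0.75 and -0.76, limma adjusted p = 0.0212 and 0.0193; 0.627 and 0.722 without the block).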

How the data were processed

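The authors aligned 75-base paired reads of polyadenylated RNA (300 ng input, stranded kit, 1 lane) with STAR 2.7.1a to GRCm38.p6, counted uniquely mapped reads per Ensembl gene, filtered genes and scaled libraries by TMM with edgeR, and scaled to the summed exon length of each gene. What they deposited is FPKM, 1 column for each of 12 libraries. FPKM were fitted as log2(FPKM + 0.1) with limma 3.58.1 in R 4.3.3, with 4 group means and a mean-variance trend over all 13283 genes. Calls needed an adjusted p (Benjamini-Hochberg) under 0.05 together with a fold change over 1.5. The replicate block treated libraries of 1 genotype and number as correlated (consensus correlation 0.757). The labels do not say whether a number marks 1 mouse, so p-values measure the spread between these libraries, and the pairing rests on the correlation of deviations within a genotype, 0.464 to 0.750 over all genes and 0.0837 to 0.471 over the 90 segments with a mean of at least 1 FPKM. For unlike numbers within WT these were -0.659 to 0.227 and -0.387 to 0.165, so the segments alone did not set every pair apart. Libraries of different genotypes without PI3Kdi also reached 0.624 over all genes for the same number and 0.575 for unlike numbers. Depth was recovered from the spacing of low FPKM in short genes; in held-out genes 98.3 to 100% of values were whole reads within a tolerance of 0.2 reads (40% by chance). Estimated reads are FPKM times depth and length. Fits were tested on simulated data in which libraries of the same genotype and number were given a shared effect in every gene. There the unblocked fit missed the changes that both blocked fits recovered, and the block by correlation made more false calls than fixed terms. Because the pairing was built in, this cannot decide whether the deposited libraries are paired. Positions, lengths and sequences came from GENCODE M21 transcripts on GRCm38. Segments called in any contrast, the 2 largest rises and falls of each contrast, constant regions, D and J segments and the 5 highest Trav and Trbv were named by rule. Rises and falls were ranked among segments with a mean of at least 1 FPKM in a group compared. The members and lists were chosen with earlier results of these data known. All 94 members had been kept by the authors' filter on low counts, and segments removed by it were not analysed here. The alternatives were other pseudocounts, a mean FPKM filter, quantile normalization, voom on estimated reads, the blocks, and leaving out libraries. A few genes and sequences of the lists are not reported here.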

Additional observations from a re-analysis of the deposited data

Results flagged for a closer look

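In 7 of 94 segments (7.45%, against 3.03% of all genes) the 3 WT pairs moved one way with PI3Kdi and the 3 FOXO1-GFP KO pairs the other. The mean log2 change (WT first, then FOXO1-GFP KO) was 0.44 and -0.87 for Trbj2-5, 0.61 and -0.84 for Trbj1-7, 0.57 and -0.70 for Trbj1-4, 0.45 and -0.27 for Trbj2-6, 0.33 and -0.15 for Trbv14, 0.19 and -0.21 for Trbv31, and -0.30 and 0.28 for Trav8n-2. The difference of the responses was tested in limma, and none of the 7 passed: with the block the adjusted p was 0.0851 for Trbj2-5, 0.0915 for Trbj1-7, 0.166 for Trbj1-4, 0.141 for Trbj2-6, 0.134 for Trbv14, 0.207 for Trbv31 and 0.244 for Trav8n-2, and without it 1 for each. Of these, 4 are J segments shorter than a read. With 3 libraries per group, single outlying libraries were not flagged here, and fits that left out single libraries are described in the next section.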

How the results depend on the processing

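The replicate block within genotype decided the calls. It moved the number of segments called with PI3Kdi from 0 to 5 in WT and from 0 to 8 in FOXO1-GFP KO, and from 1 to 0 between genotypes with PI3Kdi. The block as fixed terms gave 4 and 7, without Trav7-6 in WT and Trav6-1 in FOXO1-GFP KO, and its genotype contrasts were not used. Of alternatives chosen after seeing the data, voom with the block called 3 and 6 and a pseudocount of 1 FPKM with the block 3 and 7, with 0 between genotypes with PI3Kdi in both. With the block, leaving out a pair gave 3 to 6 calls in WT, 6 to 8 in FOXO1-GFP KO, 0 to 1 between genotypes with PI3Kdi and 0 to 1 for the difference of responses. The calls between genotypes with PI3Kdi and for the difference were Trav8d-2 without FOXO1-GFP KO replicate 2 and Trbj2-5 without FOXO1-GFP KO replicate 1, respectively. Some segments outside the γ chain were called with PI3Kdi in a genotype only when a pair was left out. In WT these were Trbd1 (without WT replicate 1), Trav3-4 (WT replicate 2), Trbv23 (FOXO1-GFP KO replicate 2) and Trbj1-7 (FOXO1-GFP KO replicate 3). In FOXO1-GFP KO they were Trav14-2 (without FOXO1-GFP KO replicate 1), Trav8d-2 and Trbj1-1 (replicate 2) and Trav6n-6 (replicate 3). Trgc1 and Trgj1 were called in both genotypes in each of these blocked fits, and Trgc4 in all but WT without WT replicate 1. Without the block, PI3Kdi called 0 segments in either genotype under every pseudocount, filter, normalization, voom and left-out library. Between genotypes with PI3Kdi, 0 segments were called with a pseudocount of 0.01 FPKM, with a mean of at least 1 FPKM or with voom, and 0 to 1 when single libraries were left out. Of the named segments, Trac reversed with PI3Kdi in WT to 0.05 without WT replicate 3 or WT+PI3Kdi replicate 1 (0.0532 and 0.0512), and in FOXO1-GFP KO to -0.00228 with quantile normalization, -0.0212 without FOXO1-GFP KO replicate 2 and -0.00742 without FOXO1-GFP KO+PI3Kdi replicate 3; Trbc2 reversed in WT to -0.00958 without WT replicate 1. Over single left-out libraries these ranged from -0.204 to 0.0532 for Trac in WT, from -0.0212 to 0.197 for Trac in FOXO1-GFP KO and from -0.00958 to 0.498 for Trbc2 in WT. The inverse Simpson number of Trav moved to 30.8 in WT by reads, and with only members of at least 1 FPKM to 30.2 in WT and, for FOXO1-GFP KO, 29.1, and 29.8 when PI3Kdi was added. That of Trbv moved by reads to 14.3 in WT, 14.6 when PI3Kdi was added, and 14.1 for FOXO1-GFP KO. The mean correlation of paired libraries over segments in FOXO1-GFP KO, 0.238, became 0.281 with a pseudocount of 1 FPKM and 0.313 over all members. The causes were not tested. With 3 libraries a group and a median of 17.5 reads for a Trav segment, values of single α variable segments rest on few reads.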
